A study of Sus scrofa with 23 samples.

Results

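The cytosolic ribosomal protein genes are described here in kidney cortex of newborn pigs. They were taken from the annotation by symbol, as RPL or RPS with a number and at most 1 of the letters A, L or X after it, together with RPLP0, RPLP1, RPLP2 and RPSA. This gave 79 of the 26687 gene symbols in the table: 32 genes of the small (40S) subunit, 44 of the large (60S) subunit and the 3 genes of the acidic stalk. They lie on 16 autosomes and, for 4 of them, on the X chromosome. Of the 79 genes, 77 passed the expression filter and were tested.

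The study generated pigs with a disrupted CFTR gene, the chloride channel mutated in cystic fibrosis, and sequenced total RNA of the cortex after ribosomal RNA depletion. By their labels 11 libraries come from CFTR–/– pigs (CF), 6 from CFTR+/– pigs (HET) and 6 from CFTR+/+ pigs (WT), each from another newborn animal, and the study's group non-CF joins the last 2 labels (n = 12). By the study's methods heterozygous pigs were mated to breed the animals. Sex and litter are not among the labels. The libraries held 32901281 to 52952273 estimated counts each.

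A ribosome is built from ribosomal RNA and a fixed set of proteins, and most of these proteins are present in a single copy per particle. The messages of nearly all ribosomal protein genes begin with a C followed by an unbroken run of pyrimidines, the 5′ terminal oligopyrimidine (TOP) motif, through which mTOR signalling and LARP1 control their translation together. Cells keep the synthesis of the proteins in step with that of the RNA, and several members act outside the ribosome: RPL5 and RPL11 bind MDM2 when assembly is disturbed. In the kidney, as in other tissues, growing and secreting cells carry many ribosomes.

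CFTR was used as the check of the labels. It had 1.27 to 3.70 CPM (library counts scaled to a common total, median 2.25) in the libraries labelled WT, 9.47 to 17.6 (median 12.04) in those labelled HET and 12.5 to 23.6 (median 20.9) in those labelled CF. CFTR RNA was thus highest where the labels give 2 disrupted alleles, which goes against a loss of the transcript, and each direction between genotypes below is one between libraries with these labels. The tissue label was met by the proximal tubule markers, all 8 of which were detected, with a summed level of 7741 to 14350 CPM in the label CF and 7410 to 12110 in non-CF. Library WT12 stood apart: RN18S, the 18S ribosomal RNA left after depletion, took 7.11% of its counts, against 0.0615% to 0.510% in the 22 other libraries. The pig numbers in the titles fall into an earlier set (pigs 1 to 6 and 12 to 18, n = 13) and a later set (pigs 7 to 11 and 19 to 23, n = 10), and each label occurs in both sets.

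The annotated starts of the messages show how far the gene models carry the TOP motif. For 78 members, the 30 bases around the annotated start of the most abundant transcript were read from the genome (10 before the start and 20 from it on, sense strand, Sscrofa11.1, RefSeq annotation), and a C followed by at least 4 letters that are each C or T, with that C at most 5 bases from the start, was counted as a run. Such a run was found for 29 of 78 members (37.2%), against 18.9% of the 16183 tested genes with such a window. The annotated first base was itself a C followed by at least 4 such letters in 17 members (21.8%) and in 3.23% of all these genes, and in 4 of the 17 the run began at that base, whereas in the others it began before it. The members shown are 6 with a long run, among them RPS20 and RPL26, and 2 whose annotated start holds none, RPS12 and RPL5. Capitals mark the run.
RPL7: gcgctaaCTTCCTCTTTCCCggctggaacc
RPL10: gtgggagcgCCTCTTTTCCTTCggcgcggt
RPL26: ctgtggttCTCTTCCCTTTTgcggccatcg
RPS20: tcacgCCTTCCTCTTTgaagaagacgcagc
RPLP2: gcgccggcgtCTTCCTTTCTgtccctgacg
RPL6: ggccttagttCTCTTTCCCatcttgcaagg
RPS12: ctttccctgccgccgccgagtcgcgcggag
RPL5: tgctgggcctgctgctctgtggcaagccgc
These windows are chr4:62602420-62602449 (plus strand) for RPL7, chrX:124927239-124927268 (plus) for RPL10, chr12:53553434-53553463 (minus) for RPL26, chr4:75762199-75762228 (plus) for RPS20, chr2:507881-507910 (plus) for RPLP2, chr14:39302437-39302466 (plus) for RPL6, chr1:30923373-30923402 (minus) for RPS12 and chr4:124367593-124367622 (minus) for RPL5. Each holds the last 10 bases before the annotated transcript and the first 20 bases of its first exon. The window of RPS12 holds pyrimidine letters just before the annotated first base and no run by the rule, and a start annotated a few bases off moves a run out of reach.

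The share of members with a run was 34.4% in the 40S subunit (11 of 32), 37.2% in the 60S subunit (16 of 43) and 2 of 3 in the stalk. Of the translation factors of the TOP type with such a window, 7 of 15 (46.7%) held a run, and of the mitochondrial ribosomal protein genes 27.8% did. Of the 77 members tested, 29 had a run and 48 had none. In the comparisons described further on, the median log2 fold change between later and earlier title numbers was 0.16 in those with a run and 0.15 in those without, and that of CF against WT was 0.18 and 0.14.

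Nearly all members were expressed at a high level. On the TPM scale, which is per length, 75 of 79 had a median above 100 and 14 above 1000 over the 23 libraries. The highest was RPLP1, which forms the stalk with RPLP2 on the anchor RPLP0, with 1357 to 1932 TPM (median 1695). RPL37 followed with 1291 to 1936 TPM (median 1638), RPS29 with a median of 1614, RPL35 with 1326 and RPS27 with 1322. The ranges of these 5 genes overlapped, so their order is not fixed by these libraries. The 10 highest genes held 25.5% of the members' TPM. By subunit, the median of the members was 709 TPM for 40S, 596 for 60S and 764 for the stalk genes.

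At the lower end stood 3 paralogs and RPL18. RPL3L, the paralog of RPL3 made in heart and skeletal muscle, had a median of 2.39 TPM and 94 to 258 counts. RPS27L, a p53-responsive paralog of RPS27, had 52.9 TPM. RPL10L, a paralog of RPL10 of the testis, had 0 to 2 counts in each library, below the limit of 3 counts that was taken as the floor. RPL18 was at 0 in every library: its gene model (chr1:84378453-84379052) is a short stretch on chromosome 1, whereas the symbol RPL18_1 (chr6:53974353-53978681, minus strand), outside the naming rule, held 8118 to 15457 counts (median 11117). RPS2 had a median of 41729 counts but of only 171 TPM, and it is annotated as a single long transcript (chr3:39996179-40003110), on which its place in the order of TPM rests. Ribosomal protein genes have many processed copies in mammalian genomes, and reads shared with a copy were divided by the pseudoaligner.

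**Figure D1:**
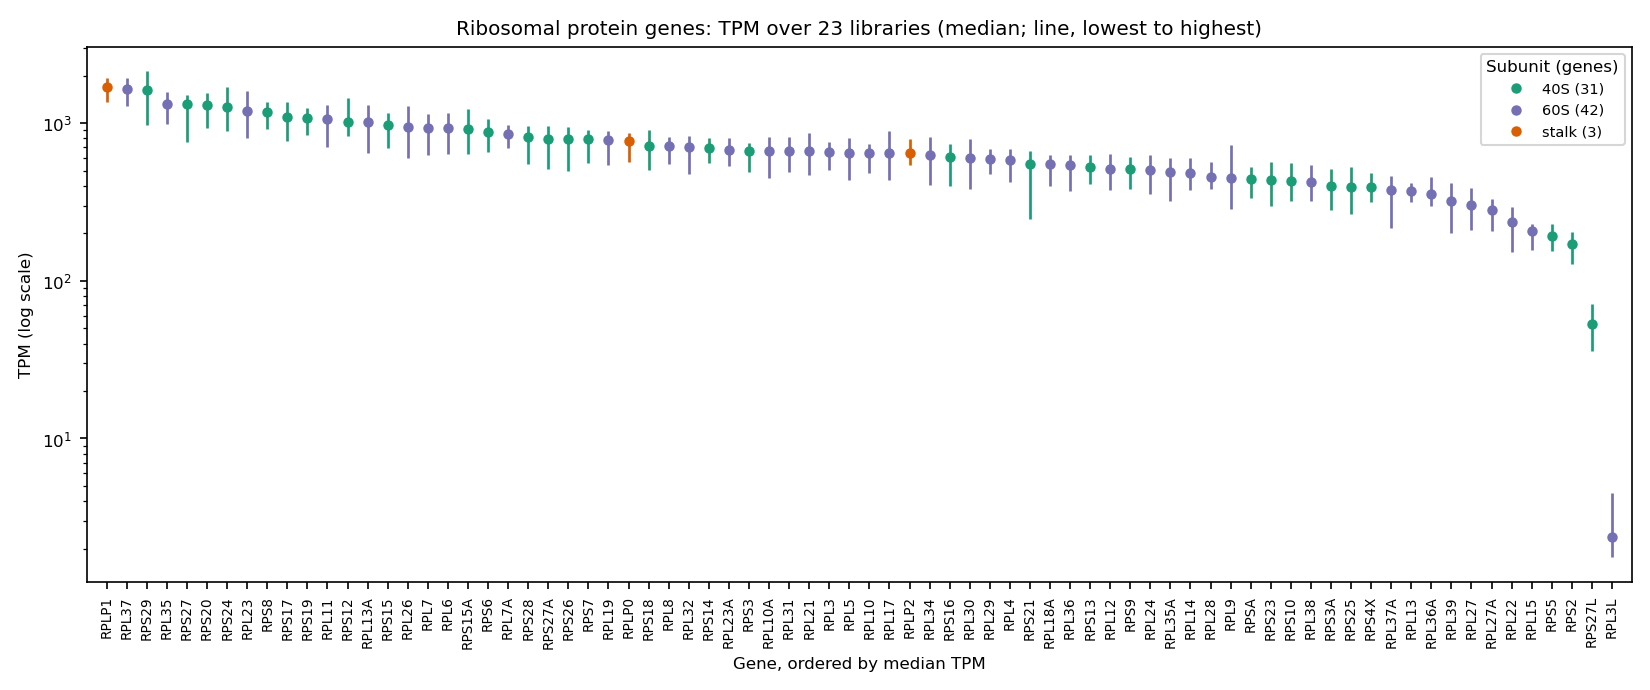
Level of each ribosomal protein gene in kidney cortex, in TPM on a log scale, ordered by median. Points are medians over 23 libraries, lines run from the lowest to the highest library, and colour gives the subunit. Of the 76 genes drawn, 74 lie above 100 TPM, and RPL3L (2.39 TPM) stands below the rest. RPL18 and RPL10L had a median of 0 and are not drawn, and 1 gene is not reported.

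The members moved together from library to library. Over the 23 libraries, the log2 CPM of a member correlated with the mean of the other members with a median r of 0.90, and 65 of 77 had an r above 0.8. These points share library size, depth and the scaling, and are given as a description. Among the lowest correlations were those of RPL3L (0.38), RPLP2 (0.58) and RPS9 (0.65). The SD of a member's log2 CPM lay between 0.13 and 0.32, with a median of 0.18, against 0.26 for all genes tested. Between its lowest and highest library a member differed by a median of 1.70-fold, from 1.39-fold for RPL7A to 2.69-fold for RPS21. WT12 was the lowest library for 68 of the 77 members, and CF9 was the highest for 45 and HET20 for 21.

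Summed over the members, ribosomal protein genes took 2.22% to 3.18% of the counts without RN18S, with a median of 2.86%. In the libraries labelled WT the share was 2.22% to 2.93% (median 2.64), in HET 2.78% to 3.18% (median 2.96) and in CF 2.49% to 3.15% (median 2.86). The 3 labels overlapped. Without WT12 the label WT began at 2.49%, with a median of 2.78%. On the scale of TPM, in which short genes weigh more, the share was 3.84% to 6.16%. In bulk tissue, fewer cells of a kind and less RNA of these genes per cell cannot be told apart.

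**Figure D2:**
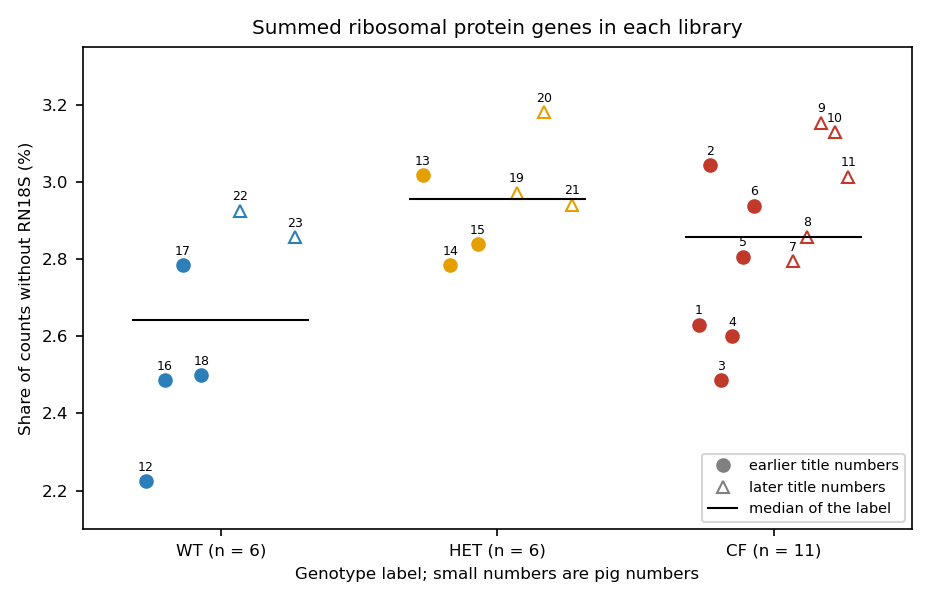
Summed ribosomal protein genes as a percentage of the counts without RN18S, for each library by genotype label. Filled circles are the earlier and open triangles the later title numbers, small numbers give the pig, and lines are the medians of the labels (2.64%, 2.96% and 2.86%). WT12 is the lowest at 2.22%, HET20 the highest at 3.18%, and the labels overlap.

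The study compared CF with non-CF to ask what CFTR loss changes in the kidney. For the ribosomal protein genes, no member passed the test. The members called were 0 of 77 with edgeR's quasi-likelihood test at an adjusted p under 0.05, where 0.349% of all 20921 genes were called. DESeq2 also called 0, as did the Mann-Whitney U test after the same adjustment over all genes. An unadjusted p under 0.05 was reached by 3 members in edgeR (3.90%), against 13.7% of all genes, and by 4 members in the Mann-Whitney U test. The log2 fold changes ran from -0.13 for RPS23 to 0.25 for RPL3L, with a median of 0.04, beside -0.0005 for all genes. They were above 0 for 56 members and below 0 for 21. With the RN18S share as a term this median was -0.04, on the other side of 0, and without WT12 it was 0.01. It was also 0.01 without CF9, 0.02 without WT18, 0.06 without CF3 and 0.07 without HET20. The cycling-cell markers (MKI67, TOP2A, CCNB1, CDK1, PCNA and MCM2) were below 0 for 6 of 6 in the same comparison (median -0.31, 5 with an unadjusted p under 0.05, 0 called by edgeR or DESeq2), with summed levels of 267 to 366 CPM in CF and 260.2 to 531 in non-CF. The distal nephron markers, from the loop of Henle on (UMOD, SLC12A1, SLC12A3, CALB1, KCNJ1 and PVALB), were below 0 for 5 of 6 (median -0.24, 3 with an unadjusted p under 0.05, 0 called by edgeR and 3 by DESeq2), with 1237 to 1906 CPM in CF and 1305 to 2416 in non-CF. None of these markers was at 0, and their part in the result was not tested.

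RPS20 and RPL5 were among the 3 members with the smallest p. RPS20, a 40S protein of the head of the subunit, had 444 to 628 CPM in the label CF (median 510.5), 461 to 535 in HET (median 511) and 358 to 473 in WT (median 386), with a log2 fold change of 0.20 (SE 0.0781) against non-CF and an adjusted p of 0.224. RPL5, which joins the 5S ribosomal RNA and RPL11 before they enter the 60S subunit, had 476 to 707 CPM in CF (median 599.7), 507 to 605 in HET (median 589.5) and 383 to 550 in WT (median 479), with a log2 fold change of 0.18 (SE 0.0801, adjusted p = 0.317). In both genes the libraries labelled HET lay within the range of CF, and those labelled WT reached lower.

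Against the label WT alone, most members had a direction toward higher levels in the libraries labelled CF, and 1 passed the test. Of 77 members, 73 had a log2 fold change above 0 and 4 below (RPS27L, RPLP2, RPS12 and RPL27, of which all but RPLP2 were above 0 in some fits with 1 library left out), with a median of 0.16, beside -0.0007 for all genes. An unadjusted p under 0.05 was reached by 44.2% of the members and by 13.95% of all 21434 genes. After adjustment over all genes 1 member was called, RPS20 (log2 fold change 0.38, SE 0.0788, edgeR's adjusted p = 0.0355), where 0.336% of all genes were called in either direction and 0.149% as higher. Its annotated start is among those printed above. RPS20 was called in 14 of 23 fits with 1 library left out. It was not called without CF2, CF5, CF7, CF9, WT12, WT16, WT17, WT18 or WT22, with an adjusted p of up to 0.111 (without WT18). DESeq2 called 9 members (11.7%) and 2.68% of all genes. The CF and WT libraries did not overlap in 1 of the 77 members, and in 0.247% of all genes.

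The members best known for roles outside translation or in signalling did not pass the test. RPL5, which binds MDM2, had the highest log2 fold change of the 60S members, 0.33 (SE 0.0863, edgeR's adjusted p = 0.0773, DESeq2's adjusted p = 0.0137). The p53-responsive RPS27L had the lowest of all members, -0.03 (SE 0.111, adjusted p = 0.938), and -0.11 to 0.04 with 1 library left out. RPS6, the substrate of S6 kinase, had 552 to 776 CPM in CF (median 692) and 492.6 to 695 in WT (median 598), with a log2 fold change of 0.19 (SE 0.0793, adjusted p = 0.284). RPL11 had a log2 fold change of 0.20 (SE 0.0871, adjusted p = 0.308). RPS27A, made as a fusion with ubiquitin, had 283 to 451 CPM in CF (median 337) and 228 to 364 in WT (median 309.6), with a log2 fold change of 0.21 (SE 0.0954, adjusted p = 0.315). RPSA, also known as the laminin receptor, had 290 to 479 CPM in CF (median 367) and 288 to 373 in WT (median 347), with a log2 fold change of 0.14 (SE 0.0874, adjusted p = 0.490). Among the stalk genes the values were 0.14 for RPLP1 (SE 0.0776, adjusted p = 0.444), 0.13 for RPLP0 (SE 0.0820, adjusted p = 0.528) and -0.03 for RPLP2. The libraries of both labels overlapped in all of these genes.

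WT12 moved with these values. Without it, the median of the members was 0.11, 68 were above 0 and 9 below, 16 had an unadjusted p under 0.05 and 0 were called. The RN18S share also differed by label, with a median of 0.0900% in CF, 0.151% in HET and 0.279% in WT, and its part in this comparison was not tested. The cycling-cell markers were all below 0 in CF against WT, with a median log2 fold change of -0.37, 0 of 6 called by edgeR, 5 with an unadjusted p under 0.05 and 1 called by DESeq2. Their summed level was 267 to 366 CPM in the label CF and 340 to 531 in WT, and none of the 6 was at 0. The distal nephron markers were above 0 for 2 and below 0 for 4 (median -0.19), with 0 called by edgeR, 4 with an unadjusted p under 0.05 and 1 called by DESeq2. SLC12A3, the sodium chloride cotransporter of the distal tubule, stood at -0.77 (SE 0.202, adjusted p = 0.0780) and CALB1, its calcium-binding protein, at -1.38 (SE 0.405, adjusted p = 0.1101). Their summed level was 1237 to 1906 CPM in CF and 1450 to 2222 in WT, and none was at 0. The proximal tubule markers were above 0 for 7 of 8 (median 0.15), with 0 called by edgeR, 2 with an unadjusted p under 0.05 and 1 called by DESeq2. The part of these markers in the result was not tested.

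The libraries labelled HET gave a like picture against WT. No member was called (0 of 77), and 0.00467% of all genes were, a single gene, CFTR. Yet 76 members had a log2 fold change above 0 and 1, RPL3L, below (-0.12, but 0.11 without WT23), with a median of 0.23, and 70.1% of the members had an unadjusted p under 0.05 against 8.001% of all genes. DESeq2 called 0 members. Among the 3 members with the smallest p were RPS20 (log2 fold change 0.33, SE 0.0885, adjusted p = 0.398) and RPL27A (0.27, SE 0.0832, adjusted p = 0.508). RPL27A, a 60S protein, had 434 to 495 CPM in HET (median 439) and 312 to 418 in WT (median 376), so these labels did not overlap. The same held for RPS19, the 40S protein mutated in Diamond-Blackfan anaemia, and for RPL32, where 0.700% of all genes did not overlap. Both were singled out after their values were seen. Without WT12 the median was 0.18 and 25 members had an unadjusted p under 0.05. The erythroid markers, such as HBB and ALAS2, were also above 0 for 6 of 6 in HET against WT, with a median of 0.62, 0 called and 2 with an unadjusted p under 0.05. Their summed level was 153 to 216 CPM in HET and 105 to 221 in WT, and none was at 0. The translation factors of the TOP type were above 0 for 16 of 16 (median 0.22, 9 with an unadjusted p under 0.05). Of the mitochondrial ribosomal protein genes 69 of 76 were above 0 (median 0.095, 6 with an unadjusted p under 0.05). The cycling-cell markers were above 0 for 1 and below 0 for 5 (median -0.155). In each of these lists 0 were called, and their part in the result was not tested. The comparisons of CF and of HET with WT share the WT libraries, so their values are not independent.

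Between CF and HET no member was called by edgeR or DESeq2, and 0% of all genes were called by edgeR. Here 12 members had a log2 fold change above 0 and 65 below, with a median of -0.07, and 3 (3.90%) had an unadjusted p under 0.05, against 9.83% of all genes. The median was -0.04 without CF3 and without HET20, and no member had an unadjusted p under 0.05 without HET20 or without CF8. The 3 members were RPL30 (-0.21, SE 0.0949, adjusted p = 0.469), RPS23 (-0.26, SE 0.121, adjusted p = 0.482) and RPLP2 (-0.17, SE 0.0819, adjusted p = 0.497). RPS23, which lies at the decoding centre of the 40S subunit, had 91.4 to 165 CPM in CF (median 110.4) and 108 to 171 in HET (median 137). RPLP2 had 164 to 236 CPM in CF (median 189), 191 to 251 in HET (median 200.2) and 176 to 208 in WT (median 196). The ranges of the labels overlapped in all 3 genes. Other lists also lay below 0 in CF against HET, each with 0 called by edgeR. The cycling-cell markers did so for 6 of 6 (median -0.24, 2 with an unadjusted p under 0.05), with summed levels of 267 to 366 CPM in CF and 260.2 to 531 in HET. The erythroid markers did so for 6 of 6 (median -0.30, 2 with an unadjusted p under 0.05), with 108 to 452 CPM in CF and 153 to 216 in HET. The distal nephron markers did so for 5 of 6 (median -0.33, 3 with an unadjusted p under 0.05), with 1237 to 1906 CPM in CF and 1305 to 2416 in HET. Of the mitochondrial ribosomal protein genes 74 of 76 were below 0 (median -0.16, 7 with an unadjusted p under 0.05). No marker was at 0, and the part of these lists in the result was not tested.

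**Figure D3:**
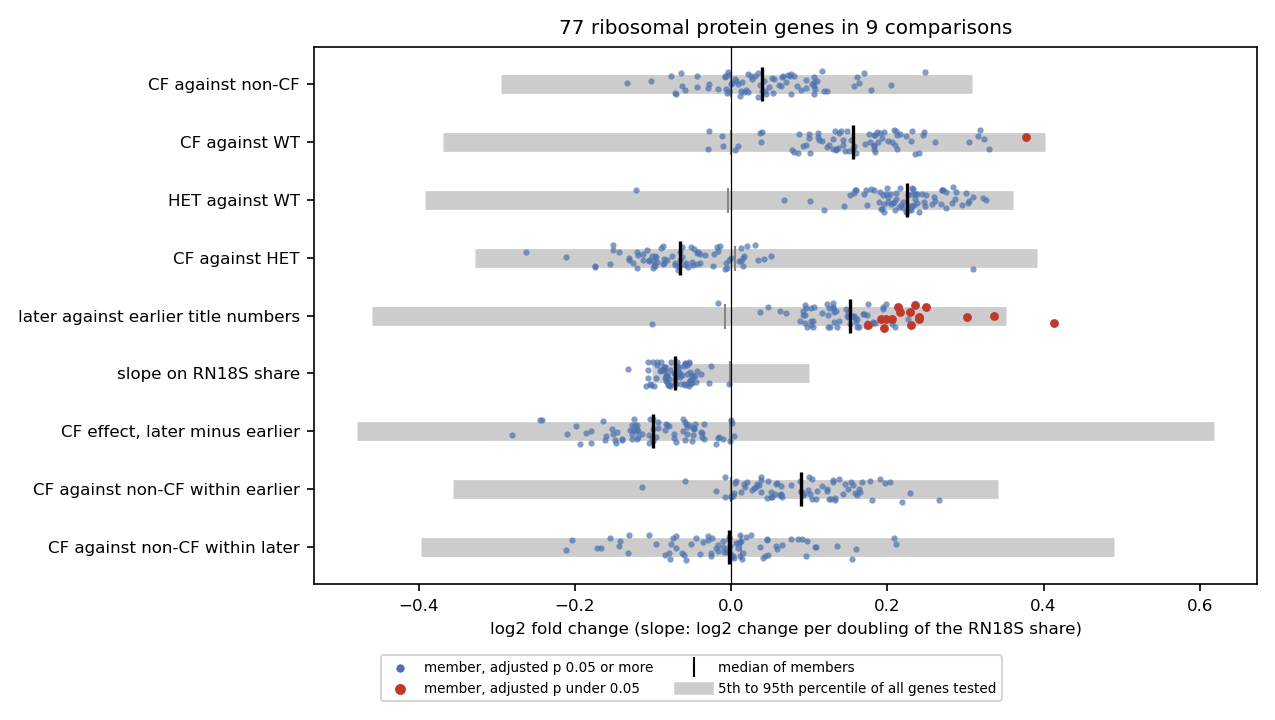
Log2 fold change of each of the 77 tested ribosomal protein genes in 9 comparisons, with the slope given per doubling of the RN18S share. Red points had an adjusted p under 0.05 (edgeR), black bars are the medians of the members, and grey bands run from the 5th to the 95th percentile of all genes tested. The members lie close together around medians of 0.04, 0.16, 0.23, -0.07, 0.15, -0.07, -0.10, 0.09 and -0.0033 from top to bottom, and 16 are red in later against earlier title numbers and 1 in CF against WT.

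Between the later and the earlier title numbers, with the label as a term, most members had a direction toward higher levels in the later pigs. Most of them did not pass the test. The summed share was 2.80% to 3.18% in the later set (median 2.96) and 2.22% to 3.04% in the earlier set (median 2.78), or from 2.49% without WT12. Of 77 members, 75 had a log2 fold change above 0, with a median of 0.15 beside -0.01 for all genes. The test called 16, all of them higher, which is 20.8% of the members, where 9.96% of all genes were called and 5.28% as higher. An unadjusted p under 0.05 was reached by 63.6% of the members and by 26.5% of all genes. The cut between the numbers was placed in an earlier look at these libraries, so these p-values are no independent evidence of a difference. With each numbered run cut at its middle instead, 2 members were called (2.60%), a smaller share than the 6.38% of all genes. That cut differs from the first only in WT18, which it places in the later set.

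The members called were spread over both subunits, 8 of the 40S and 8 of the 60S, and none of the stalk. RPS12, a 40S protein, had 280.5 to 423 CPM in the earlier set (median 348) and 363 to 509 in the later set (median 435), with the largest log2 fold change of a highly expressed member (0.34, SE 0.0653, edgeR's adjusted p = 0.00369). RPL3L had 2.33 to 4.12 CPM in the earlier and 3.04 to 5.44 in the later set (0.41, SE 0.100, adjusted p = 0.0135), from the low counts given above. RPL26, which lines the exit tunnel of the 60S subunit, had 225 to 376 CPM (median 322) and 320.4 to 427 (median 386), with a log2 fold change of 0.24 (SE 0.0598, adjusted p = 0.0148). The sets overlapped in all 3 genes, which were the members called in each of 23 fits with 1 library left out.

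RPS23 (0.30, SE 0.0804, adjusted p = 0.0212) and RPS13 (0.20, SE 0.0539, adjusted p = 0.0236) completed the 5 with the smallest p. The other 11 members called were RPS2, RPL36A, RPL24, RPS29, RPS18, RPL37A, RPL39, RPS25, RPL11, RPL23 and RPS26, with log2 fold changes of 0.18 to 0.25. RPL11, the partner of RPL5 at MDM2, had 299 to 485 CPM in the earlier set (median 439) and 431 to 520.4 in the later set (median 473). Below 0 stood 2 members that did not pass the test, among them RPS9 (-0.02). The number of members called lay between 3 (without CF9, and without WT22) and 26 (without CF8, and without WT17) when 1 library was left out. Without CF8 and without WT17 the 26 members are 33.8%, against 11.2% and 10.95% of all genes. Without CF9 and without WT22 the 3 members are 3.90%, against 5.77% and 5.29% of all genes, and in 5 of the 23 fits (without CF3, CF9, HET15, HET20 or WT22) the share of members called was below that of all genes. DESeq2 called 26 members (33.8%) and 13.2% of all genes.

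**Figure D4:**
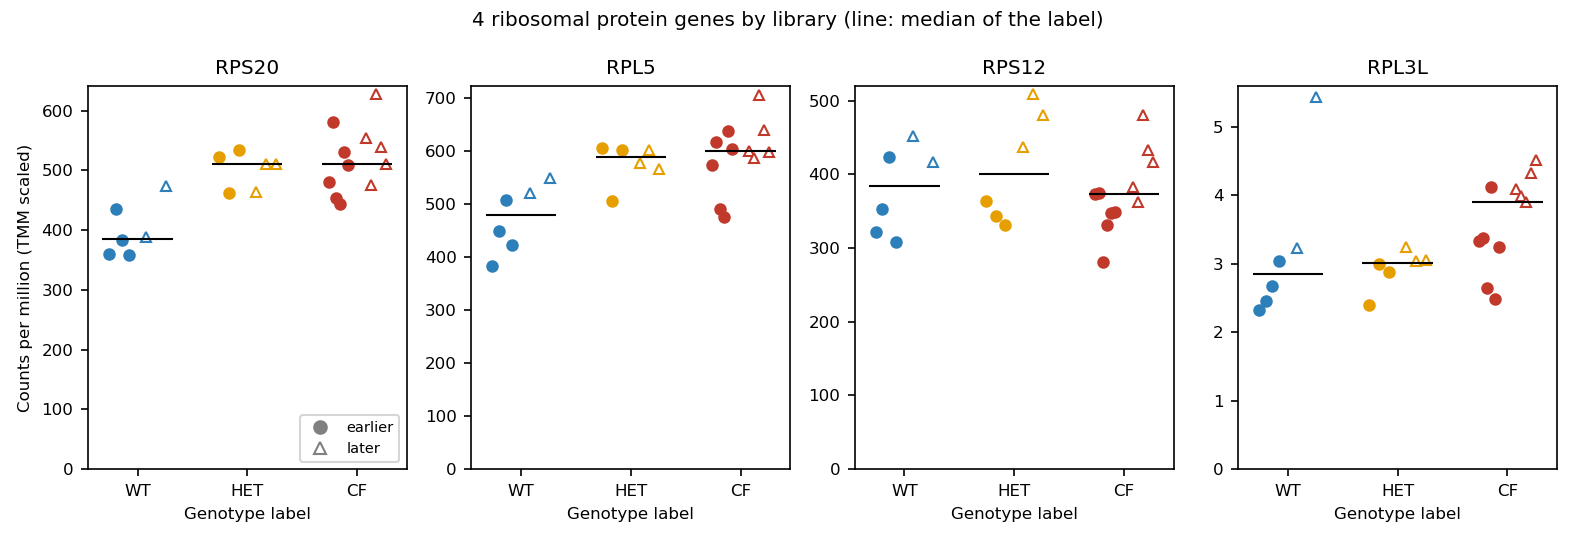
CPM of RPS20, RPL5, RPS12 and RPL3L in each library by genotype label, with filled circles for the earlier and open triangles for the later title numbers and lines at the medians of the labels. The axes start at 0. RPS20 and RPL5 reach lower in WT (358 and 383 CPM) than in CF (444 and 476 CPM), whereas RPS12 separates more by title number, with medians of 348 CPM in the earlier and 435 CPM in the later set.

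Other markers moved with the title numbers as well. Of the mitochondrial ribosomal protein genes, which build a separate ribosome in the organelle, 74 of 76 had a log2 fold change above 0 (median 0.21) and 22 were called as higher. The stromal markers COL1A1, COL1A2, COL3A1, PDGFRB and DCN were all below 0 (median -0.35), with 1 called, COL3A1, and summed levels of 2891 to 6011 CPM in the earlier and 2311 to 4160 in the later set. The proximal tubule markers were above 0 for 6 of 8, with 2 called as higher, among them SLC22A6. Of the distal nephron markers 5 of 6 were above 0 (median 0.17), with 1 called, PVALB (0.93, adjusted p = 0.00574), and summed levels of 1237 to 2222 CPM in the earlier and 1343 to 2416 in the later set. Lower in the later set were CDH5 of 5 endothelial markers (-0.40, adjusted p = 0.0144), AQP2 of 6 collecting duct markers (-0.62, adjusted p = 0.0430) and LYPD1 of 5 nephron progenitor markers (-0.58, adjusted p = 0.0201), each the only one called of its list. Those lists held markers on either side of 0. The endothelial list had 2 above and 3 below (median -0.10) and the collecting duct list 2 above and 4 below (median -0.05). The nephron progenitor list had 3 above and 2 below (median 0.03). The cycling-cell markers were above 0 for 5 of 6 (median 0.25), with 3 at an unadjusted p under 0.05 and 1 called, CCNB1 (0.42, adjusted p = 0.0266), and summed levels of 260.2 to 531 CPM in the earlier and 301 to 531 in the later set. No marker of these lists was at 0 in all libraries, and their part in the difference between the sets was not tested. The RN18S share was 0.0615% to 7.11% in the earlier set (median 0.147) and 0.0772% to 0.510% in the later (median 0.119).

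The CF effect was also taken within each set. Within the earlier set, 71 members had a log2 fold change above 0 and 6 below, with a median of 0.09, and within the later set 35 were above and 42 below, with a median of -0.0033. No member was called in either set by edgeR, where 0% and 2.27% of all genes were, and 2 and 1 members had an unadjusted p under 0.05, against 9.31% and 17.4% of all genes. In the earlier set RPL26 (0.22, adjusted p = 0.524) and RPS24 (0.19, adjusted p = 0.538) were among the 3 with the smallest p. In the later set RPL23 (-0.20, adjusted p = 0.278), RPL27 (-0.21, adjusted p = 0.305) and RPS20 (0.21, adjusted p = 0.306) had the smallest p. The difference of the CF effect between the sets was tested as an interaction. It called 0 of 77 members, as did DESeq2, where 0.0185% of all genes were called, and no member had an unadjusted p under 0.05, against 10.3% of all genes. The interaction was below 0 for 74 members, with a median of -0.10, and RPL27 (-0.28, adjusted p = 0.533), RPL23 (-0.24, adjusted p = 0.571) and RPS29 (-0.24, adjusted p = 0.597) had the smallest p. Without WT12 the median within the earlier set was 0.03 and that of the interaction -0.03. The first was also 0.05 without CF2 and 0.06 without WT18, and the second -0.05 to -0.07 without CF1, CF2, CF8 or HET20.

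Markers moved within the sets as well. The cycling-cell markers were below 0 for 6 of 6 within each set, with a median of -0.28 in the earlier (3 with an unadjusted p under 0.05) and -0.36 in the later (5), and 0 called. Their summed levels were 267 to 340.2 CPM in CF and 260.2 to 531 in non-CF of the earlier set, and 301 to 366 and 340.1 to 531 in the later set. Within the later set 3 of 6 distal nephron markers were called as lower (median -0.34), with 1343 to 1787 CPM in CF and 1810 to 2416 in non-CF, which did not overlap. In the same set 3 of 6 collecting duct markers were above and 3 below 0 (median -0.13), with 2 called as lower. The summed level of these 6 was 339 to 469.5 CPM in CF and 315 to 406 in non-CF, so it reached higher in CF. Within the later set 71 of 76 mitochondrial ribosomal protein genes were below 0 (median -0.17, 27 with an unadjusted p under 0.05, 0 called). The interaction was below 0 for 6 of 6 erythroid markers (median -0.54, 2 with an unadjusted p under 0.05) and for 73 of 76 mitochondrial ribosomal protein genes (median -0.14, 6 with an unadjusted p under 0.05), with 0 called in both. The part of these genes in the values of the members was not tested.

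The relation of the members to RN18S was negative. RN18S is what the depletion left, so its share is one of the library after depletion and not of the tissue. In a fit on the log2 of this share alone, all 77 members had a slope below 0, with a median of -0.07 on the log2 scale per doubling of the share, beside -0.0017 for all genes. An unadjusted p under 0.05 was reached by 61 members (79.2%), against 14.4% of all genes. No member was called by edgeR, where 0.22% of all genes were called. DESeq2 called 38 members (49.4%) and 2.98% of all genes. The smallest adjusted p values were those of RPL5 (slope -0.11, SE 0.0241, adjusted p = 0.0544), RPS27 (-0.11, SE 0.0248, adjusted p = 0.0583) and RPS15A (-0.09, SE 0.0214, adjusted p = 0.0653). RPLP2 had the slope nearest to 0 (-0.0021), and it turned above 0 under some alternatives, as with upper-quartile normalization (0.0096). Without WT12 the median slope was -0.05, 71 members were below 0 and 10 had an unadjusted p under 0.05. With the genotype label and the title-number set as further terms the median slope was -0.057 and 77 members were below 0. In that fit 53 members had an unadjusted p under 0.05 and 0 were called, against 0.0335% of all genes. Markers of cell types moved on the same slope. The proximal tubule markers were below 0 for 7 of 8 (median -0.08, 3 with an unadjusted p under 0.05), and CUBN, the endocytic receptor cubilin, was called (-0.13, adjusted p = 0.0408). The cycling-cell markers were above 0 for 6 of 6 (median 0.06, 2 with an unadjusted p under 0.05, 0 called by edgeR), with MKI67 at 0.16 (adjusted p = 0.0754). The distal nephron markers were above 0 for 5 of 6 (median 0.06, 2 with an unadjusted p under 0.05, 0 called). Their part in the slope of the members was not tested.

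As a description over libraries, the summed share of the members and the log2 RN18S share had a Pearson r of -0.60 and a Spearman rho of -0.36 (n = 23). Both shares come from the same libraries and depth, and RN18S was taken out of the total of the first. Without WT12 alone r was -0.33 and rho -0.27 (n = 22), and without the 2 libraries farthest from the median, HET21 and WT12, r was -0.44. Within the earlier title numbers r was -0.80 and rho -0.81 (n = 13), and r was -0.76 without WT12. In the later title numbers r was -0.01 and rho 0.04 (n = 10), and the difference between the sets was not tested. The share of the members had r = 0.59 with that of the mitochondrial ribosomal protein genes, r = -0.19 with that of 7SL RNA and r = 0.33 with the estimated fragment length.

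**Figure D5:**
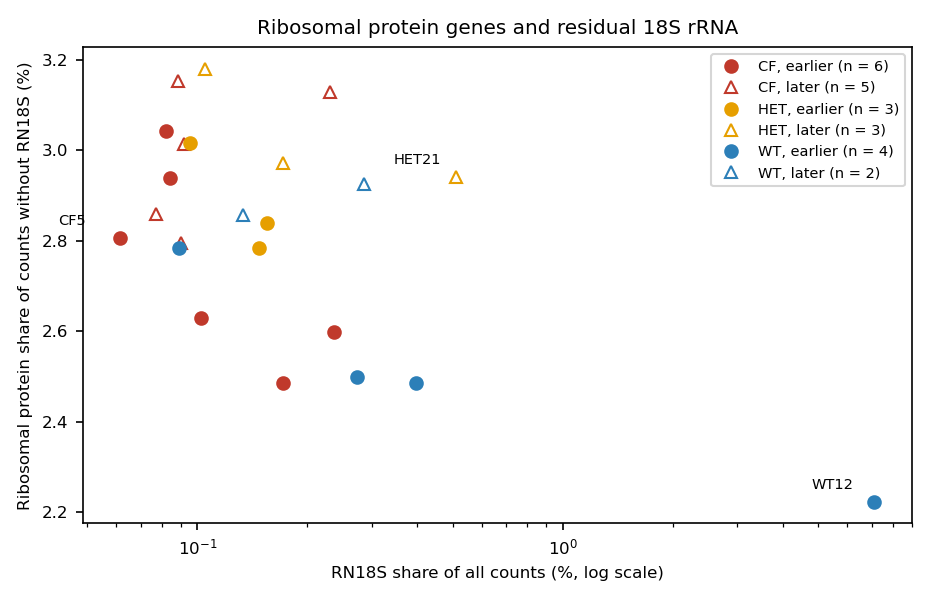
Summed share of ribosomal protein genes against the RN18S share of all counts (log scale) for 23 libraries, coloured by label, with filled circles for the earlier and open triangles for the later title numbers. The earlier libraries fall from upper left to lower right (r = -0.80), the later libraries show no slope (r = -0.01), and WT12 stands alone at 7.11% RN18S.

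The genes around the ribosome were described from lists. The list of other ribosomal components (7 genes that the rule on symbols leaves out, such as FAU and RACK1, 4 of them paralogs) had 0 of 7 called in CF against non-CF by edgeR and DESeq2, with 3 above and 4 below 0, and 3 of 7 called as higher in later against earlier title numbers, RPL36AL, RPL22L1 and RPL7L1. In CF against non-CF its smallest p values were those of RPL7L1 (log2 fold change -0.18, adjusted p = 0.435) and RACK1, a signalling scaffold on the 40S subunit (0.08, adjusted p = 0.687).

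The translation factors whose messages are known to carry TOP motifs were compared with the members by their counts on each side of 0. In CF against WT, 16 of 16 had a log2 fold change above 0 (median 0.21), 12 had an unadjusted p under 0.05, 0 were called by edgeR and 5 by DESeq2. TPT1, the translationally controlled tumour protein, had 1288 to 2011 CPM in CF (median 1551) and 814 to 1410 in WT (median 1118), and differed by 0.46 on the log2 scale (SE 0.107, adjusted p = 0.0579). Against non-CF, 15 of 16 were above 0 and 0 were called by either tool, and 4 had an unadjusted p under 0.05. TPT1 (0.27, adjusted p = 0.215) and EIF3E, a subunit of initiation factor 3 (0.23, adjusted p = 0.247), had the smallest p. On the RN18S share, 14 of 16 had a slope below 0 and 2 were called as lower, TPT1 (-0.15, adjusted p = 0.0337) and EIF3E (-0.13, adjusted p = 0.0367). In CF against HET 8 were above and 8 below 0 (median -0.0008), where 65 of 77 members were below. In later against earlier title numbers 10 were above and 6 below 0, and only PABPC1, the poly(A)-binding protein, passed the test, and it fell by 0.27 on the log2 scale (adjusted p = 0.0323).

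The ribosome assembly factors act in the nucleolus and on precursor subunits. In CF against WT, 18 of 38 were above 0 and 20 below (median -0.0047), with 0 called by edgeR and DESeq2 and 1 with an unadjusted p under 0.05. Against non-CF, 11 were above and 27 below 0 (median -0.04), 0 were called by either tool and 2 had an unadjusted p under 0.05, NHP2 and FBL, which belong to the RNA-modifying particles of the nucleolus (-0.26 and -0.23, adjusted p = 0.281 and 0.362). In later against earlier title numbers 35 of 38 were above 0 and 9 were called as higher, TAF1D (0.41, adjusted p = 0.00361) and GNL3 (0.34, adjusted p = 0.0106) first. The mitochondrial ribosomal protein genes were above 0 for 11 and below 0 for 65 of 76 in CF against non-CF (median -0.09), with 0 called by edgeR and DESeq2 and 9 with an unadjusted p under 0.05, where MRPL14 (-0.14, adjusted p = 0.142) and MRPL13 (-0.25, adjusted p = 0.241) had the smallest p.

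Among 22 genes of the mTOR and MYC control of ribosomal protein synthesis, 14 were above and 8 below 0 in CF against non-CF, with 0 called by edgeR, 3 with an unadjusted p under 0.05 and 2 called by DESeq2. RICTOR, a subunit of mTOR complex 2, had a value of 0.24 (SE 0.0577, adjusted p = 0.0593), and GABPA, a transcription factor of ribosomal protein promoters, had 0.16 (adjusted p = 0.128). In later against earlier title numbers 3 were called as higher and 2 as lower. Among them RHEB, the activator of mTOR complex 1, rose by 0.25 (adjusted p = 0.0257), and EIF4EBP2, a repressor of cap-dependent initiation, fell by 0.26 on the log2 scale (adjusted p = 0.0164).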

How the data were processed

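Kidney cortex RNA of 23 newborn pigs was analysed from the values that the authors deposited for 77689 transcripts. The authors pseudoaligned the reads with kallisto to RefSeq transcripts of Sscrofa11.1. The estimated counts the authors deposited are not normalized, and 63.0% of them were not whole numbers (tolerance 1e-06). In the TPM the authors deposited, each estimate is divided by the effective length of its transcript and scaled so that a library has a constant sum.

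Estimated counts were summed over all transcripts of a symbol and rounded. Genes were tested across the whole table with edgeR 4.0.16 in R 4.3.3 (filterByExpr, TMM normalization, quasi-likelihood test, Benjamini-Hochberg adjustment over all genes tested, threshold 0.05). CF was compared with non-CF, the 3 labels were compared in a shared fit, the title-number set was tested with the label as a term, and the slope used log2 of the RN18S share with RN18S removed. Replicates are separate pigs, and title numbers are not shared between labels. CPM are scaled by TMM. Shares of counts leave out RN18S. Libraries held 32901281 to 52952273 counts, and a floor of 3 counts corresponds to 0.0567 to 0.0912 CPM and covers counting error only. The same holds for the 95% Wilson interval of a share, which for the summed members ran from 2.219% to 2.228% in WT12 and from 3.176% to 3.186% in HET20.

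Members and lists were chosen with earlier results of these data known. Named by rule were, for each comparison, up to 5 members in each direction with the smallest p among those with an adjusted p under 0.05, or otherwise the 3 with the smallest p, the 5 highest and 5 lowest in TPM, the stalk genes, RPSA, RPS6, RPL5, RPL11, RPS27A, the paralogs, up to 3 genes a list, CFTR and RN18S. Genes named outside this rule were chosen after their values were seen. Alternatives were DESeq2 1.42.0, the Mann-Whitney U test, other normalizations, no filter, mRNA transcripts only, RN18S or 7SL RNA removed, other terms, another cut of the title numbers and each library left out. Windows were read with pysam 0.24.0, tables were made with Python 3.11.15, numpy 2.4.6, pandas 2.3.3 and scipy 1.17.1, and figures were drawn with matplotlib 3.10.9. The fits were tested on simulated data. Raw reads and the paper's metabolite data were not analysed here. Genes withheld for evaluation are counted among the members or lists but not reported by name.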

Additional observations from a re-analysis of the deposited data

Results flagged for a closer look

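In 60 groups of 6 libraries (the labels WT and HET, for the named members, the summed share, the RN18S share and the fragment length), the library at either end was compared with its neighbour by Dixon's criterion, which chance passes in about 1 in 20 groups, and 4 groups held an outlying library. The RN18S share of WT12 was 7.11%, against 0.396% in the next library of the label WT. The RN18S share of HET21 was 0.51%, against 0.172% in the next library of the label HET. The level of RPL27A in HET20 was 495 CPM, against 455 CPM in the next library of that label. The level of RPL3L in WT23 was 5.44 CPM, against 3.24 CPM in the next library labelled WT. Outside the members as defined by symbol, RPL18_1 held a median of 11117 counts over all libraries, while RPL18 was at 0 in each of them.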

How the results depend on the processing

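The number of members called depended on the tool, on single libraries and on the cut of the title numbers, and the causes were not tested. For CF against WT, where 1 was called, DESeq2 called 9, the title-number set as a term gave 4, and median-of-ratios normalization, upper-quartile normalization, mRNA transcripts only and the removal of RN18S and 7SL RNA (added after seeing the data) gave 2 each, and with 1 library left out the number was 0 to 3 (3 without CF4 and without WT23). For later against earlier title numbers, where 16 were called, DESeq2 called 26 (33.8%, against 13.2% of all genes). The cut at the middle of each numbered run, which moved only WT18 into the later set, gave 2 (2.60%, against 6.38% of all genes). Leaving out 1 library gave 3 to 26, with a smaller share of members than of all genes called in 5 of 23 fits. For the slope on the RN18S share, where 0 were called, DESeq2 called 38 (49.4%, against 2.98% of all genes). With mRNA transcripts only 2 were called (2.60%, against 0.54%). Leaving out 1 library gave 0 to 5 (5 without WT17, 6.49% against 0.92% of all genes). In the other 6 comparisons the number called was 0 under every alternative tried. Over all genes, DESeq2 called 515 for CF against non-CF, 575 for CF against WT, 34 for HET against WT, 63 for CF against HET, 2857 for later against earlier title numbers, 623 for the slope and 144 for the interaction, where edgeR called 73, 72, 1, 0, 2149, 46 and 4.

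The median log2 fold change of the members in CF against non-CF turned from 0.0393 to -0.0422 with the RN18S share as a term. With upper-quartile normalization it was 0.0224, with 48 members above and 29 below 0. Within the later title numbers it was -0.0033, and with 1 library left out it lay between -0.0591 and 0.0365, above 0 without CF8, CF11, HET20 or HET21. The median of the interaction moved from -0.100 to -0.0610 with upper-quartile normalization, where 10 members were above and 67 below 0. Of 54 values of named members followed through the alternatives, 6 changed direction at least once, none of them called. With 1 library left out, CF against WT ranged from -0.114 to 0.0364 for RPS27L, from -0.0648 to 0.0476 for RPS12 and from -0.0918 to 0.0399 for RPL27, HET against WT from -0.191 to 0.106 for RPL3L, later against earlier title numbers from -0.0556 to 0.00578 for RPS9, and the slope on RN18S from -0.0191 to 0.0531 for RPLP2. The slope of RPLP2 was also above 0 with mRNA transcripts only (0.00286), upper-quartile normalization (0.00962) and RN18S and 7SL RNA removed (0.00316). Not all members were followed one by one: with the RN18S share as a term, 19 were above 0 in CF against non-CF, where 56 had been. The correlation of the summed share with the RN18S share was -0.60 over all libraries, -0.33 without WT12 (added after seeing the data), -0.44 without the 2 farthest, -0.80 within the earlier and -0.01 within the later title numbers. As a share of TPM the members took a median of 5.35%, where they took 2.86% of counts. No paired analysis was possible because litter is not among the labels and each title number belongs to a single pig. Among the tested members, depth limits RPL3L most (94 to 258 counts).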
